A study of Mus musculus with 2 samples.

Results

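The claudin genes described here are Cldn1, Cldn3, Cldn4, Cldn6, Cldn7, Cldn9, Cldn10 and Cldn18, 8 of the 23 claudin genes and 8 of the 19465 features read in both libraries. They were chosen by name around Cldn6, which was selected on its value in these data as one of the genes most reduced in the library labelled KPC-shZEB1 against KPC-shV. All differences between the libraries given below therefore come from the contrast that led to the choice, and they are descriptions without a test.

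Spatial transcriptomics was read from mouse pancreatic tumors that had grown in the pancreas after injection of KPC cells, a cancer line derived from genetically engineered mice with a Pdx-1-Cre driver that acts in the pancreas. The KPC-shZEB1 library is from a tumor of cells carrying a stable lentiviral short hairpin RNA against Zeb1, a transcriptional repressor of epithelial genes, and the KPC-shV library is from a tumor of the control vector cells. There was 1 library per condition, while the protocol names 2 tumors per group, and neither the labels nor the paper says which tumor or which knockdown line a library covers. The paper gives gemcitabine treatment for the same tissues, the labels do not name it, and they give neither the strain nor the age of the mice. On the Visium CytAssist slide, probe pairs hybridized to the RNA of a section are captured by barcoded spots, and since 1 spot spans a patch of tissue, its counts can come from cells of several types.

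Claudins are membrane proteins whose extracellular loops join neighboring epithelial cells in the tight junction, and which of them a cell makes sets how tightly and for which ions the layer seals. Cldn3, Cldn4 and Cldn7 are widespread epithelial claudins, Cldn1 is known as a barrier claudin of the epidermis, and Cldn18 is known from stomach and lung and is also made by pancreatic tumors. Cldn6 and Cldn9 are neighboring genes, Cldn6 being mainly known from embryonic epithelium, and Cldn10 forms ion pores in kidney and secretory glands. Repression of epithelial junction genes by Zeb1 is textbook knowledge and is given here as background.

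The sequences upstream of the claudin genes are shown because Zeb1 binds the E-box CACCTG, whose reverse complement is CAGGTG. Windows of 250 bases before the start site were taken from RefSeq (GRCm38.p6) and were found for 7 of the 8 genes, with 10 windows in all. The motif on either strand was in 3 of them, which belong to Cldn4, Cldn6 and Cldn7, while 17.2% of 32851 RefSeq windows of the same length held it. Each site is printed 5′ to 3′ on the strand of its gene with the motif in capitals. Its first base is 14 bases before the start for Cldn4 (minus strand, chr5:134946935-134946960), 93 bases for Cldn6 (plus strand, chr17:23679260-23679289), and 97 and 57 bases before the second of the Cldn7 start sites (plus strand, chr11:69965312-69965341 and chr11:69965352-69965381).
Cldn4: ctttaactgcagCACCTGtggccgcc
Cldn6: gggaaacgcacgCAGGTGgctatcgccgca
Cldn7 first site: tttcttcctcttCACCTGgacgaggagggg
Cldn7 second site: agacttccggttCAGGTGagtgtcccttca
In the GENCODE M21 annotation the Cldn4 motif lies outside every transcript of the gene, whereas the Cldn6 motif and both Cldn7 motifs overlap the untranslated first exon of a longer transcript. Having at least 2 such motifs, as the Cldn7 window does, was seen in 2.06% of all windows.

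Cldn3 and Cldn4 lie 39.3 kb apart on chromosome 5, and their whole windows are shown because the motif was in the window of Cldn4 but not in that of Cldn3. The Cldn4 window is chr5:134946935-134947184 on the minus strand, and the Cldn3 window is chr5:134985964-134986213 on the plus strand.
Cldn4 window: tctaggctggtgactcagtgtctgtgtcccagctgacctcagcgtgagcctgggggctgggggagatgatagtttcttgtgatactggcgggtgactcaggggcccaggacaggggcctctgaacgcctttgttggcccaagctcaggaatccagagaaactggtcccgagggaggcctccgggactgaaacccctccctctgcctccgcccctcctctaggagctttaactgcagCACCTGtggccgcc
Cldn3 window: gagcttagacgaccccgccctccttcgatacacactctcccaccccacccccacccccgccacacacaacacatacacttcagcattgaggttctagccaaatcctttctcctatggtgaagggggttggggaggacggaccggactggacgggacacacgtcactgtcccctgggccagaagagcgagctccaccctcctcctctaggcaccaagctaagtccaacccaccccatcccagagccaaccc
A match is a run of letters only, and binding of Zeb1 was not measured here.

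The KPC-shZEB1 library held 140493626 unique molecular identifiers (UMIs) in 2220 spots and the KPC-shV library 172059528 UMIs in 3552 spots, and a level is given as UMIs of a gene per 1000000 UMIs (CPM). Zeb1 itself was at 10.8 CPM in the library labelled KPC-shZEB1 and at 12.4 CPM in KPC-shV, a log2 ratio of -0.20, and at 15.6 CPM and 12.7 CPM (log2 ratio 0.29) without acinar-rich spots, so that the target was not lower in the library labelled KPC-shZEB1 over those spots. KPC-shZEB1 and KPC-shV therefore stand below for the libraries labelled so, and each direction rests on these labels. A section also holds cells of the host, which do not carry the hairpin. Which cells gave the Zeb1 UMIs cannot be told from these counts. The paper shows the Zeb1 knockdown efficiency in the KPC cells, which was not measured here. Acinar-rich spots are those in which genes of pancreatic digestive enzymes (24 of 29 listed genes were in the features) took over 20% of the UMIs, and they were 765 spots (34.5%) of KPC-shZEB1 and 261 spots (7.35%) of KPC-shV. This list took 27.5% and 1.88% of the library, which lowered the CPM of other genes in KPC-shZEB1, and the median log2 ratio over 15358 features was -0.48 with all spots and -0.02 without acinar-rich spots. Among 12 genes not expected in the tissue, levels were 0.235 to 1.73 CPM, which marks the range in which a level cannot be told from background.

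Cldn6 was read at 7.36 CPM (1034 UMIs, exact Poisson 95% interval 6.92 to 7.82) in KPC-shZEB1 and at 50.4 CPM (8674 UMIs, 49.4 to 51.5) in KPC-shV. The log2 ratio (always KPC-shZEB1 divided by KPC-shV) was -2.78 (exact conditional binomial 95% interval -2.87 to -2.68), a 6.85-fold lower level. Without acinar-rich spots the levels were 11.7 CPM and 52.4 CPM and the log2 ratio was -2.16. With 1 library per condition there is no replicate spread, and all intervals here cover counting error only. In a section, fewer cells that make a gene and less RNA of it per cell cannot be told apart. Ordered by this ratio, Cldn6 was the 23rd lowest of all features tested in all spots. Without acinar-rich spots it was the 5th lowest of 5000 features with at least 50 CPM in the higher library. Its 52.4 CPM in KPC-shV just passed that limit. The features on either side in the order without acinar-rich spots were Hilpda at -2.25 and Vegfa at -2.08, both known as targets of the hypoxia response. The orders used different sets of features. Since Cldn6 was chosen on this ratio, nothing is read from its rank or its neighbors in rank.

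Cldn9, the gene next to Cldn6, followed it. Its level was 6.03 CPM in KPC-shZEB1 and 25.6 CPM in KPC-shV (log2 ratio -2.09, -2.20 to -1.98), and leaving out acinar-rich spots changed the log2 ratio to -2.05. Cldn6 (ENSMUSG00000023906, chromosome 17, 23679249 to 23682446, plus strand, GENCODE M21) and Cldn9 (ENSMUSG00000066720, 23682584 to 23684026, minus strand) point toward each other and their ends are 137 bases apart. Of the 14 features within 100 kb of Cldn6, 3 were at least 2-fold lower in KPC-shZEB1, namely Cldn9, Tnfrsf12a at -1.36 and Flywch2 at -1.06, and 0 were higher, beside 8.2% and 2.08% of all features tested. Their median log2 ratio was -0.68, beside -0.48 over all features, and without acinar-rich spots it was -0.13, beside -0.01, with Cldn9 the 1 feature of the 14 that was still at least 2-fold lower.

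The epithelial claudins Cldn4 and Cldn7 were lower in KPC-shZEB1 as well. Cldn4 was at 20.2 CPM in KPC-shZEB1 and 107.1 CPM in KPC-shV (log2 ratio -2.41, -2.47 to -2.35), and at -1.78 without acinar-rich spots. Cldn7 was at 224.7 CPM and 649.4 CPM (log2 ratio -1.53, -1.55 to -1.51), and at -0.97 without acinar-rich spots, just short of 2-fold. Cldn3, which lies beside Cldn4, differed less. It was at 102.8 CPM and 162.9 CPM (log2 ratio -0.66, -0.69 to -0.64), and at -0.22 without acinar-rich spots.

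Cldn18 and Cldn1 were nearer to the median feature. Cldn18 was at 164.2 CPM in KPC-shZEB1 and 299.7 CPM in KPC-shV (log2 ratio -0.87, -0.89 to -0.85), and at -0.21 without acinar-rich spots. Cldn1 was at 2.11 CPM and 3.66 CPM (log2 ratio -0.79, -0.99 to -0.59), close to the upper end of the background genes, and at -0.25 without acinar-rich spots. The summed tumor epithelium list was itself at 3620 CPM in KPC-shZEB1 and 6169 CPM in KPC-shV (log2 ratio -0.77), and at -0.13 without acinar-rich spots. The summed leukocyte list (4 genes) was at 755.6 CPM and 619.5 CPM (log2 ratio 0.29), and at 0.89 without acinar-rich spots. The part of either list in the claudin differences was not tested. Cldn10 alone of the 8 was higher in KPC-shZEB1. It was at 25.5 CPM and 5.20 CPM (log2 ratio 2.29, 2.18 to 2.40), a 4.89-fold higher level. Without acinar-rich spots it was at 6.84 CPM and 2.79 CPM (log2 ratio 1.30). Over those spots the acinar list was still at 6890 CPM in KPC-shZEB1 and 1953 CPM in KPC-shV (log2 ratio 1.82). Its part in the Cldn10 level was not tested.

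**Figure D1:**
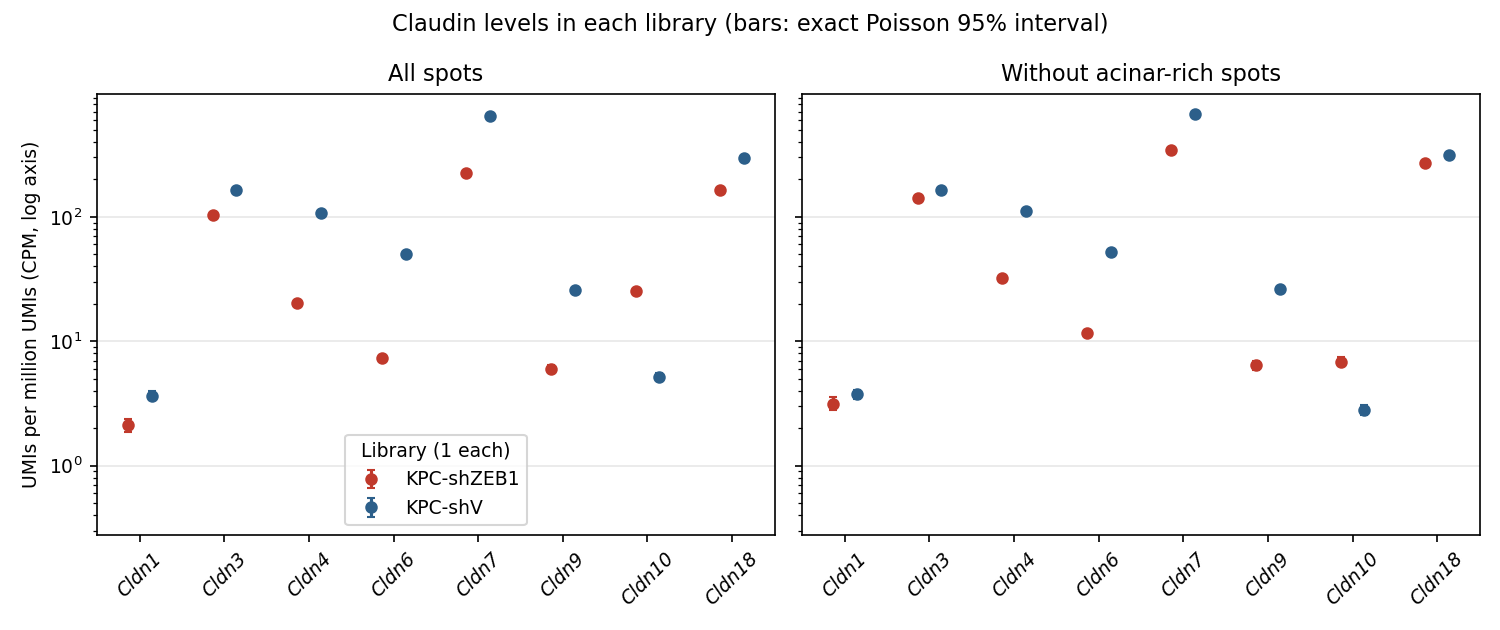
Level of each claudin gene in UMIs per 1000000 UMIs (CPM, log axis) in the KPC-shZEB1 library (red) and the KPC-shV library (blue), with all spots at left and without acinar-rich spots at right, and bars for the exact Poisson 95% interval. Cldn4, Cldn6 and Cldn9 stay well apart in both panels, Cldn1, Cldn3 and Cldn18 draw together when acinar-rich spots are left out, and Cldn10 is the gene whose red point is above the blue one.

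In all, 4 of the 8 genes (Cldn4, Cldn6, Cldn7 and Cldn9) were at least 2-fold lower and 1 (Cldn10) at least 2-fold higher with all spots, beside 8.2% and 2.08% of the 19011 features with at least 100 UMIs in both libraries together. Without acinar-rich spots these were 3 (Cldn4, Cldn6 and Cldn9) and 1 of 8, beside 1.72% and 3.82% of 18892 features. Since Cldn6 led to the choice of the family, nothing is read from these counts. The median log2 ratio of the 8 genes was -1.20 with all spots, against -0.48 over all features tested, and -0.61 without acinar-rich spots, against -0.01.

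Of the 15 other claudin genes, 1 was at least 2-fold lower with all spots and 0 were higher, beside 8.2% and 2.08% of all features tested. Their median log2 ratio was -0.49, beside -0.48. Cldn11, Cldn13, Cldn14, Cldn16, Cldn17, Cldn19, Cldn20, Cldn22 and Cldn24 were at 0.299 CPM to 1.41 CPM, within the range of the genes not expected in the tissue. Their ratios are therefore not read, and the median of the 15 is 1 of them, that of Cldn17. The gene that was 2-fold lower was Cldn2, a pore-forming claudin, at 130.9 CPM and 297.3 CPM (log2 ratio -1.18), and at -0.55 without acinar-rich spots. Cldn12 was at -0.92, Cldn23 at -0.80 and the endothelial claudin Cldn5 at -0.78 on the log2 scale. Cldn8 was at 3.97 CPM in KPC-shZEB1 and 1.99 CPM in KPC-shV, just short of 2-fold higher. Without acinar-rich spots 14 of the 15 had at least 100 UMIs. Of them 0 passed 2-fold in either direction, beside 1.72% lower and 3.82% higher of all features tested. Of 27 partners of claudins in the tight junction, such as occludin and the polarity proteins, 5 were at least 2-fold lower and 0 higher. All features tested were at 8.2% and 2.08%. The median log2 ratio of the partners was -0.69, beside -0.48 over all features. The adhesion molecule Jam2 at -1.72 and the polarity gene Pard6b at -1.31 were among the 3 lowest, and the 3 highest were Ildr2 at 0.25, Ildr1 at 0.12 and Jam3 at -0.09. Without acinar-rich spots the count was 1 lower (Jam2, -1.39) and 0 higher, beside 1.72% and 3.82% of all features. The median was -0.23, beside -0.01.

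The difference in Cldn6, Cldn4 and Cldn9 was also present within classes of spots set by epithelial content. The spots that were not acinar-rich were divided at 4422 CPM and 7246 CPM of the summed tumor epithelium list (Epcam, Cdh1, Krt7, Krt8 and Krt19, 5 of 6 listed genes) into 3 equal groups of low, middle and high epithelial level over both libraries together. They held 659, 326 and 470 spots of KPC-shZEB1 and 923, 1256 and 1112 spots of KPC-shV from low to high. Cldn6 was at 5.07 CPM, 10.2 CPM and 19.6 CPM in these groups of KPC-shZEB1. In KPC-shV it was at 17.8 CPM, 55.2 CPM and 66.5 CPM. Its log2 ratios were thus -1.81, -2.44 and -1.76, and Cldn6 in the middle group of KPC-shV was above the high group of KPC-shZEB1. Those of Cldn4 were -1.95, -1.74 and -1.45 and those of Cldn9 -2.13, -2.30 and -1.54.

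The ratios of Cldn1, Cldn3, Cldn7 and Cldn18 were not alike over the 3 groups, and these differences were not tested. Cldn1 changed side, with log2 ratios of 0.55 (0.11 to 0.99), -0.05 and -0.78 (-1.16 to -0.42) from low to high. Its levels in these groups were low, at 2.35 CPM to 4.38 CPM. Cldn7 was at 113.0 CPM, 244.4 CPM and 644.8 CPM in the 3 groups of KPC-shZEB1 and at 244.4 CPM, 690.8 CPM and 867.3 CPM in those of KPC-shV. Its log2 ratio moved from -1.11 and -1.50 in the low and middle groups to -0.43 in the high group. Cldn18 changed side, with log2 ratios of -0.72 and -0.63 in the low and middle groups and 0.55 in the high group, where it was at 445.2 CPM in KPC-shZEB1 and 304.8 CPM in KPC-shV. Cldn3 was at 214.6 CPM and 209.2 CPM in the high group, with log2 ratios of -0.54, 0.07 (0.01 to 0.12) and 0.04 from low to high. Within a group the libraries were not fully alike. From low to high, the tumor epithelium list was at 1981 CPM, 5780 CPM and 9960 CPM in KPC-shZEB1 and at 2542 CPM, 6129 CPM and 8703 CPM in KPC-shV (log2 ratios -0.36, -0.08 and 0.19), so that it was lower in KPC-shZEB1 in the low and middle groups, and its part in the claudin ratios there was not tested. The summed hypoxia list (8 of 9 listed genes) was lower in KPC-shZEB1 in all 3 groups, with log2 ratios of -0.58, -0.83 and -1.54, and its part in the claudin differences was not tested. Zeb1 was at 21.2 CPM, 15.4 CPM and 9.73 CPM in the low, middle and high groups of KPC-shZEB1. In KPC-shV it was at 20.9 CPM, 13.3 CPM and 7.81 CPM, with log2 ratios of 0.02, 0.21 and 0.32. Its level was thus lower at higher epithelial level in both libraries.

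**Figure D2:**
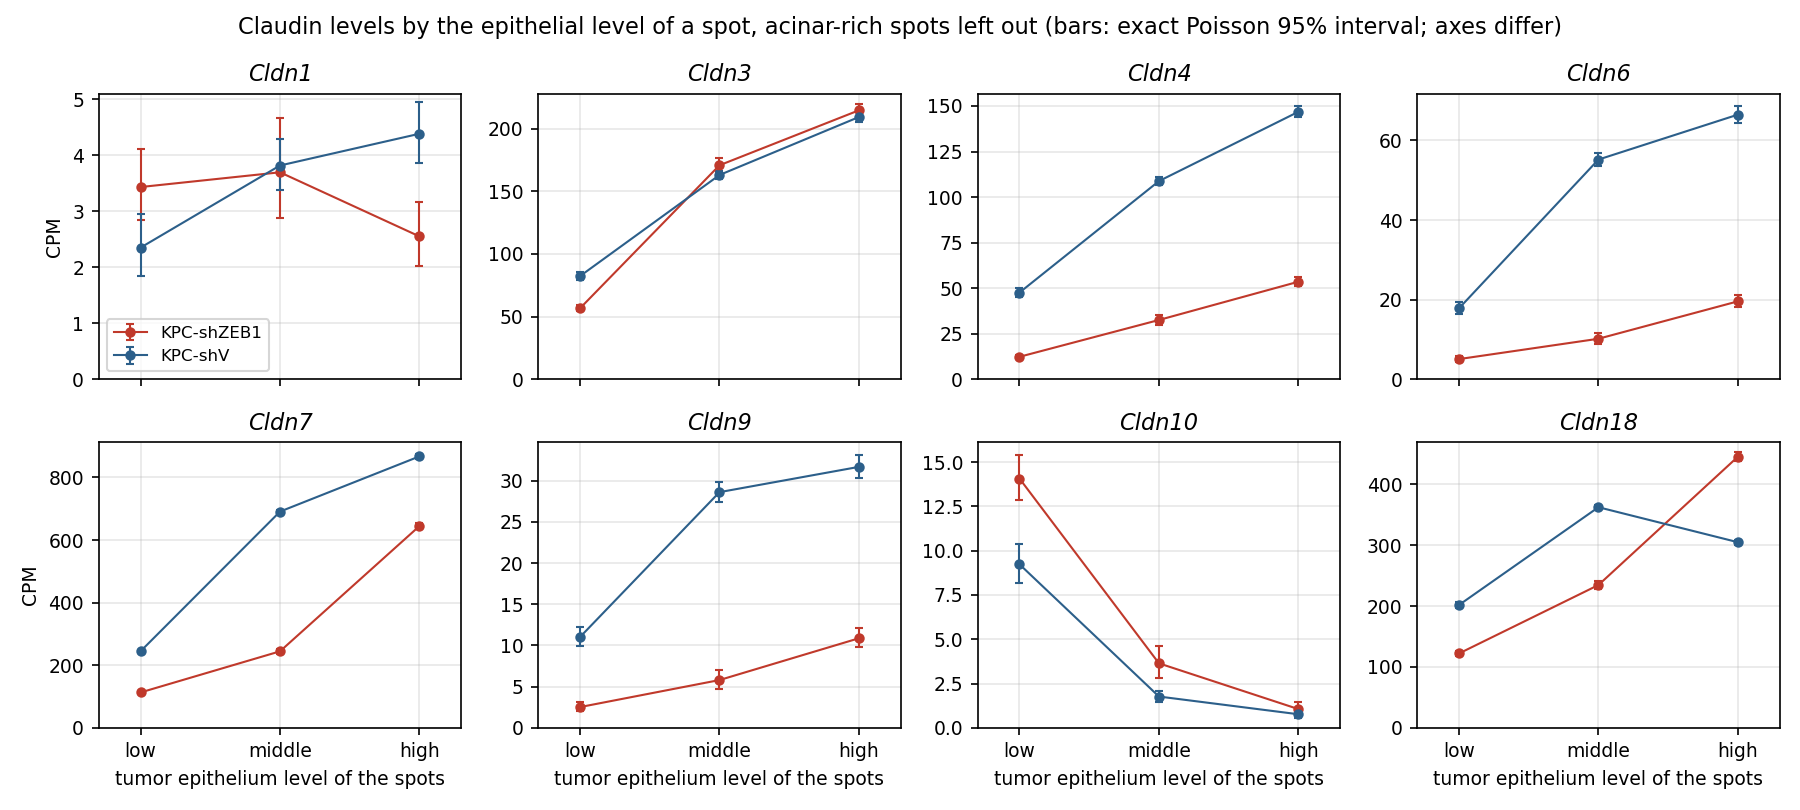
Level of each claudin gene in CPM (linear axes that differ between panels) in spots of low, middle and high level of the tumor epithelium list, for KPC-shZEB1 (red) and KPC-shV (blue), with acinar-rich spots left out and bars for the exact Poisson 95% interval. Cldn4, Cldn6 and Cldn9 are lower in KPC-shZEB1 in all 3 groups, and the Cldn3 lines are apart in the low group and close in the others. The Cldn1 and Cldn18 lines cross, and Cldn10 is highest in the low group of both libraries.

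Across the section, some claudins went with acinar-poor spots and others with acinar-rich spots. Acinar-rich spots were compared with acinar-poor spots (under 1% acinar UMIs, 1251 spots of KPC-shZEB1 and 3109 of KPC-shV) within each library, with CPM taken over the UMIs of genes outside the acinar list. Cldn6 led to the choice through its ratio between the libraries. The genes were chosen with earlier results of these data known, so this contrast is not taken as independent of the choice. Spots of 1 section are not replicates, so no test was run. Cldn18 had the lowest ratio of the 8 in both libraries, at 7.97 CPM in acinar-rich and 288.7 CPM in acinar-poor spots of KPC-shZEB1 (log2 ratio -5.18, -5.43 to -4.94). In KPC-shV it was at 2.42 CPM and 317.1 CPM (log2 ratio -7.04, -8.16 to -6.11). Cldn10 was the reverse in both libraries. In KPC-shZEB1 it was at 174.2 CPM in acinar-rich and 4.76 CPM in acinar-poor spots (log2 ratio 5.19, 5.04 to 5.35), and in KPC-shV at 116.6 CPM and 2.20 CPM (log2 ratio 5.73, 5.52 to 5.93).

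Cldn4, Cldn6 and Cldn7 were claudins of acinar-poor spots in both libraries. Cldn6 was at 2.21 CPM in acinar-rich and 12.5 CPM in acinar-poor spots of KPC-shZEB1 (log2 ratio -2.49), and at 3.49 CPM and 53.2 CPM in KPC-shV (log2 ratio -3.93). The acinar-rich values of Cldn6 rest on 38 UMIs and 13 UMIs. Cldn4 had log2 ratios of -3.02 and -4.12, and Cldn7 of -1.43 and -2.22, in KPC-shZEB1 and KPC-shV, respectively. In acinar-rich spots Cldn7 was still at 136.3 CPM and 146.4 CPM. Cldn3 was present in both kinds of spots, at 138.2 CPM in acinar-rich and 146.5 CPM in acinar-poor spots of KPC-shZEB1 (log2 ratio -0.08) and at 206.6 CPM and 165.2 CPM in KPC-shV (log2 ratio 0.32).

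Cldn9 was the gene in which the libraries differed most in this respect. It was at 17.5 CPM in acinar-rich and 6.66 CPM in acinar-poor spots of KPC-shZEB1 (log2 ratio 1.39, 1.18 to 1.60), but at 8.86 CPM and 26.9 CPM in KPC-shV (log2 ratio -1.60, -2.14 to -1.11). This difference between the libraries was not tested. Per spot, Cldn9 gave 0.393 UMIs in acinar-rich and 0.415 UMIs in acinar-poor spots of KPC-shZEB1, so that its direction there depended on leaving acinar genes out of the total. The acinar-rich spots of KPC-shZEB1 reached higher acinar shares than those of KPC-shV. In the 578 spots of KPC-shZEB1 with over 60% acinar UMIs, a class with 0 spots in KPC-shV, Cldn9 was at 22.5 CPM. In spots with 40% to 60% it was at 8.24 CPM in KPC-shZEB1 and 9.02 CPM in KPC-shV (log2 ratio -0.13, -0.98 to 0.75). At 20% to 40% it was at 2.41 CPM and 8.60 CPM (log2 ratio -1.84, -3.93 to -0.12), on 4 and 12 UMIs. Marker lists also differed between the acinar-rich spots of KPC-shZEB1 and KPC-shV. The summed gastric epithelium list was at 10260 CPM and 3102 CPM, the fibroblast list at 5145 CPM and 12779 CPM, and the islet list at 353.9 CPM and 765.8 CPM. Outside the acinar-rich spots, genes of the gastric list did not move together, with log2 ratios from -3.20 for Gkn2 to 3.28 for Muc6. Their ratios within acinar-rich spots, to which the list levels above belong, are not given here. The part of these lists in the Cldn9 level was not tested.

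Counted over the family, 4 of the 8 genes were at least 2-fold lower and 2 at least 2-fold higher in acinar-rich spots of KPC-shZEB1, beside 32.1% and 7.65% of 14854 features. In KPC-shV 5 were lower and 1 higher, beside 24.7% and 18.9% of 17876 features. The median log2 ratio of the 8 was -1.20 in KPC-shZEB1 and -1.91 in KPC-shV, beside -0.56 and -0.11 over all features. Of the other claudins with enough UMIs, Cldn8 went with Cldn10, with log2 ratios of 3.14 in KPC-shZEB1 and 3.53 in KPC-shV. Cldn2 went with the claudins of acinar-poor spots, with log2 ratios of -3.08 and -2.48.

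Within classes of acinar share the Cldn10 levels of the libraries did not differ beyond counting error except in the acinar-poor spots. Inside a class the acinar share was not matched further between the libraries. Its part in the acinar-poor difference was not tested. In spots with 1% to 5%, 5% to 20%, 20% to 40% and 40% to 60% acinar UMIs Cldn10 was at 20.8 CPM, 46.7 CPM, 96.3 CPM and 142.2 CPM in KPC-shZEB1. In KPC-shV it was at 22.6 CPM, 45.4 CPM, 98.9 CPM and 127.1 CPM. The log2 ratios between the libraries were -0.12 (-0.76 to 0.57), 0.04 (-0.38 to 0.47), -0.04 (-0.38 to 0.30) and 0.16 (-0.05 to 0.37), and in acinar-poor spots it was 1.11 (0.90 to 1.33). For Cldn6 the log2 ratio was -2.10 (-2.19 to -1.999) in acinar-poor spots and -1.97 (-3.49 to -0.63) at 5% to 20%. At 1% to 5%, 20% to 40% and 40% to 60% it was -1.09 (-2.21 to 0.08), -1.84 (-4.36 to 0.16) and 0.35 (-1.55 to 2.54). These intervals include 0 and rest on 3 to 19 UMIs in each library, so that a difference there was not detectable at this depth. Cldn18 was higher in KPC-shZEB1 at 5% to 20%, 20% to 40% and 40% to 60%, with log2 ratios of 1.66 (0.97 to 2.41), 2.55 (1.40 to 3.94) and 3.05 (1.06 to 6.17). Its KPC-shV values there rest on 21, 7 and 2 UMIs. In acinar-poor spots it was at -0.14. Cldn3 was lower in KPC-shZEB1 in the same 3 classes, at -1.20, -1.29 and -0.67, and at -0.17 in acinar-poor spots. These differences were not tested.

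**Figure D3:**
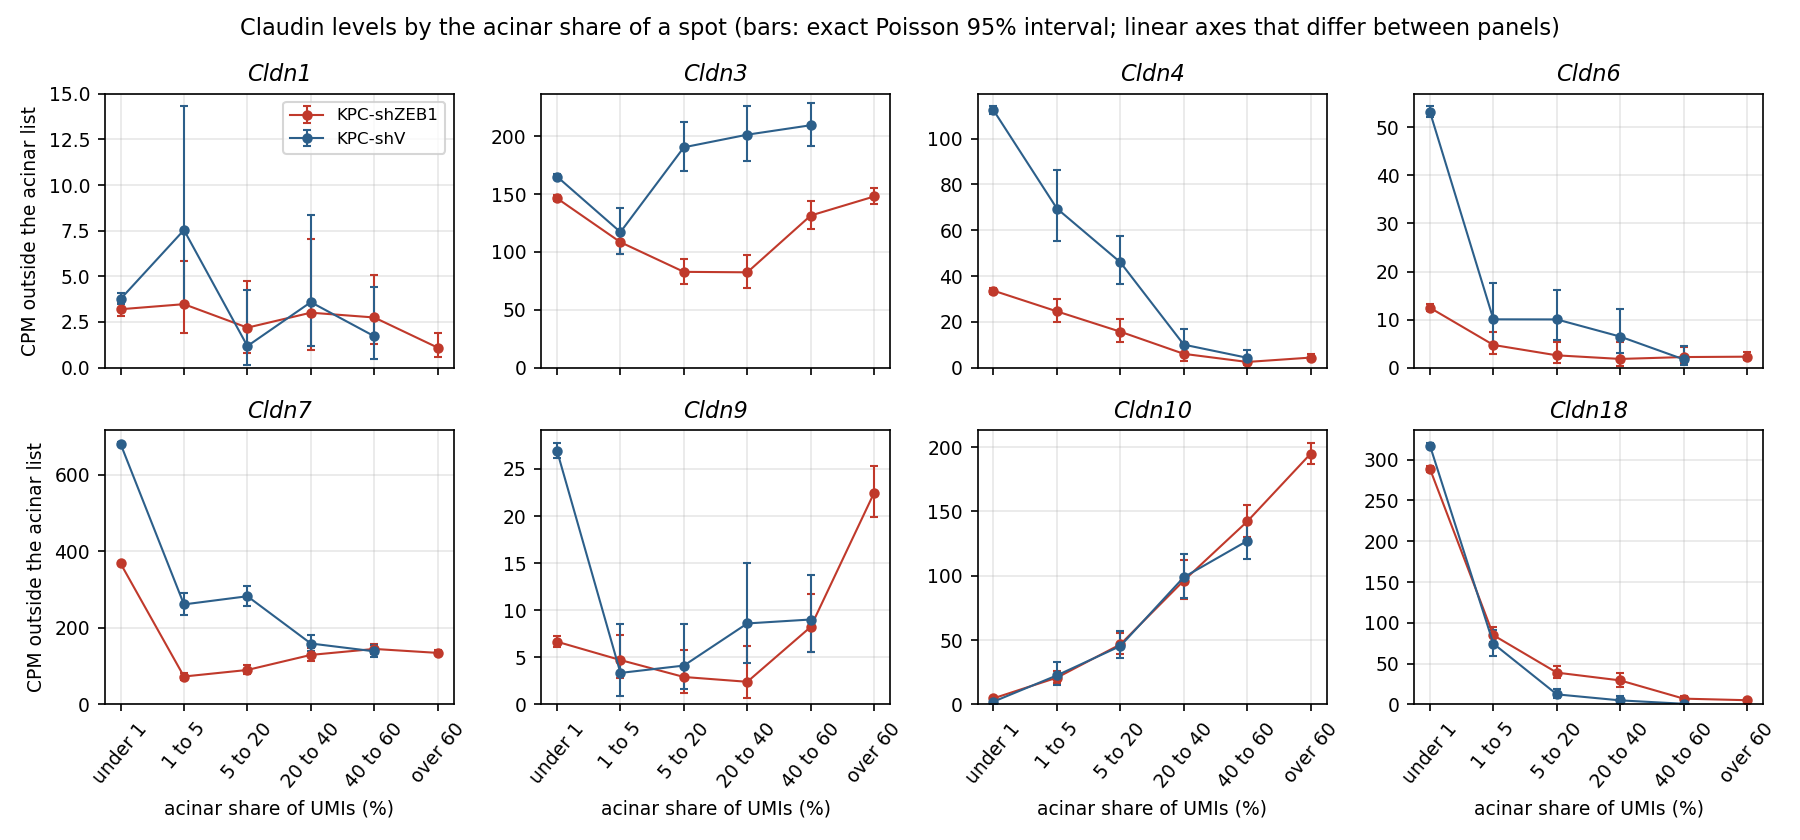
Level of each claudin gene in CPM of genes outside the acinar list (linear axes that differ between panels) by the acinar share of the UMIs of a spot, for KPC-shZEB1 (red) and KPC-shV (blue), with bars for the exact Poisson 95% interval. Cldn10 is higher at higher acinar share along 1 line for both libraries, Cldn18 is lower, and Cldn4, Cldn6, Cldn7 and Cldn9 differ by the most CPM at under 1%; KPC-shV had no spots over 60%.

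Cldn6 was also read in fewer spots of KPC-shZEB1. It gave at least 1 UMI in 505 of 2220 spots (22.7%) of KPC-shZEB1 and in 2225 of 3552 spots (62.6%) of KPC-shV. After thinning every spot to 5000 UMIs, it was in 3.25% of 2216 spots (exact binomial 95% interval 2.55% to 4.07%) and in 18.1% of 3367 spots (16.8% to 19.4%), respectively. In acinar-poor spots alone the thinned shares were 5.36% and 20.3%, and in acinar-rich spots 0.261% and 0.405%, within the range of the genes not expected in the tissue (up to 0.261% and 1.21%). Median depths of the spots outside the acinar list were 61236 UMIs in acinar-poor and 22245 UMIs in acinar-rich spots of KPC-shZEB1 and 57004 UMIs and 14251 UMIs in KPC-shV.

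Of the other genes, all but Cldn10 were likewise in fewer thinned spots of KPC-shZEB1. Thinned shares over all spots of KPC-shZEB1 and KPC-shV were 8.5% and 35.8% for Cldn4, 38.8% and 77.9% for Cldn7, and 2.57% and 11.3% for Cldn9. They were 34.4% and 48.8% for Cldn3 and 36.1% and 56.4% for Cldn18. Acinar-rich spots were 34.5% of KPC-shZEB1 and 7.35% of KPC-shV spots, and their part in these shares was not tested. In acinar-poor spots the log2 ratio of the level was -0.17 for Cldn3, -0.14 for Cldn18 and -0.23 for Cldn1. It was -1.74 for Cldn4, -0.89 for Cldn7 and -2.01 for Cldn9. Thinned shares of these genes in acinar-poor spots are not given here. Cldn10 was in 12.1% and 4.01% of all spots, but in 26.5% and 30.0% of acinar-rich spots. Cldn1 was in 1.17% and 1.96% of all spots. It was in 0 of 247 thinned acinar-rich spots of KPC-shV, which does not exclude a low share there.

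The 5% of spots with the highest Cldn6 level held 45.3% of its UMIs in KPC-shZEB1 and 16.1% in KPC-shV. This share also depends on how many UMIs a gene has, and Cldn1, with few, was at 49.2% and 39.7%. The Cldn6 values are therefore not read as a difference in spread. In the highest Cldn6 spots the tumor epithelium list was above the remaining ones, by a log2 ratio of 0.93 in KPC-shZEB1 and 0.32 in KPC-shV. The fibroblast list (7 genes) was lower there, by a log2 ratio of -0.91 and -1.41. Of these spots, 1 of 111 and 0 of 178 were acinar-rich. The remaining spots thus held nearly all acinar-rich ones, which were more frequent in KPC-shZEB1, and their part in these ratios was not tested. For Cldn10 the highest 5% of spots held 18.5% and 48.5% of its UMIs, and 87 of 111 and 108 of 178 of those spots were acinar-rich.

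In spots of at least 20000 UMIs outside the acinar-rich class, the epithelial claudins had positive correlations over spots. Spearman's rho was taken over 1404 spots of KPC-shZEB1 and 2668 spots of KPC-shV, which share a library, a section and the depth of their spots, so that it is a description. Cldn6 went with Cldn7 (rho 0.51), Cldn4 (0.45) and Cldn9 (0.36) in KPC-shV, with lower rho in KPC-shZEB1 (0.25, 0.29 and 0.27). Cldn4 with Cldn7 was likewise at 0.21 in KPC-shZEB1 and 0.47 in KPC-shV, and Cldn7 with Cldn9 at 0.16 and 0.34. Over all pairs of Cldn3, Cldn4, Cldn6, Cldn7 and Cldn9, rho ran from 0.15 to 0.45 in KPC-shZEB1 and from 0.22 to 0.59 in KPC-shV. Cldn6 gave 0.775 UMIs per acinar-poor spot of KPC-shZEB1 and 2.78 UMIs in KPC-shV, and Cldn4 and Cldn9 also gave fewer in KPC-shZEB1. Fewer UMIs can lower rho, so the lower values in KPC-shZEB1 are not read as a weaker relation between the genes. Cldn3 went with Cldn4 (0.45 and 0.44) and Cldn7 (0.44 and 0.59) in KPC-shZEB1 and KPC-shV. Cldn10 was the odd gene, with rho from -0.38 to -0.02 to each of the other 7 in either library. Its rho was positive with the fibroblast (0.40 and 0.19), acinar (0.35 and 0.16), endothelial (0.32 and 0.14) and leukocyte lists (0.23 and 0.15) in KPC-shZEB1 and KPC-shV. With total UMIs, rho was 0.26 for Cldn6 in both libraries and 0.41 and 0.45 for Cldn18 in KPC-shZEB1 and KPC-shV.

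Cldn18 followed the tumor epithelium list in KPC-shZEB1 (rho 0.72) and less so in KPC-shV (0.37). In KPC-shV it followed the gastric and the intestinal epithelium list more closely (0.50 for each), with its rho to total UMIs between these values. In KPC-shZEB1 its rho with the gastric list was 0.38 and with the intestinal list 0.58. With the mesothelial list it was 0.58 in KPC-shZEB1 and 0.41 in KPC-shV. Outside acinar-rich spots Msln gave 22635 of the 23462 UMIs of that list in KPC-shZEB1 and 44662 of 46007 in KPC-shV. Ctse gave 76135 of the 107625 UMIs of the gastric list in KPC-shV. Of the intestinal list, Cdh17 gave 83950 and Lgals4 53311 of 162822 UMIs there. These rho thus rest largely on few genes and are not read as signs of the tissues named. Cldn4 had a rho of 0.48 with the tumor epithelium list and 0.47 with the hypoxia list in KPC-shV, and of 0.46 and 0.15 in KPC-shZEB1. For Cldn6 these were 0.41 and 0.23 in KPC-shV, and 0.33 and 0.13 in KPC-shZEB1. Cldn7 had a rho of 0.57 with the tumor epithelium list and 0.59 with the tight junction partners in KPC-shV, and of 0.52 and 0.58 in KPC-shZEB1. Cldn1 had rho of at most 0.18 with any other gene of the 8.

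**Figure D4:**
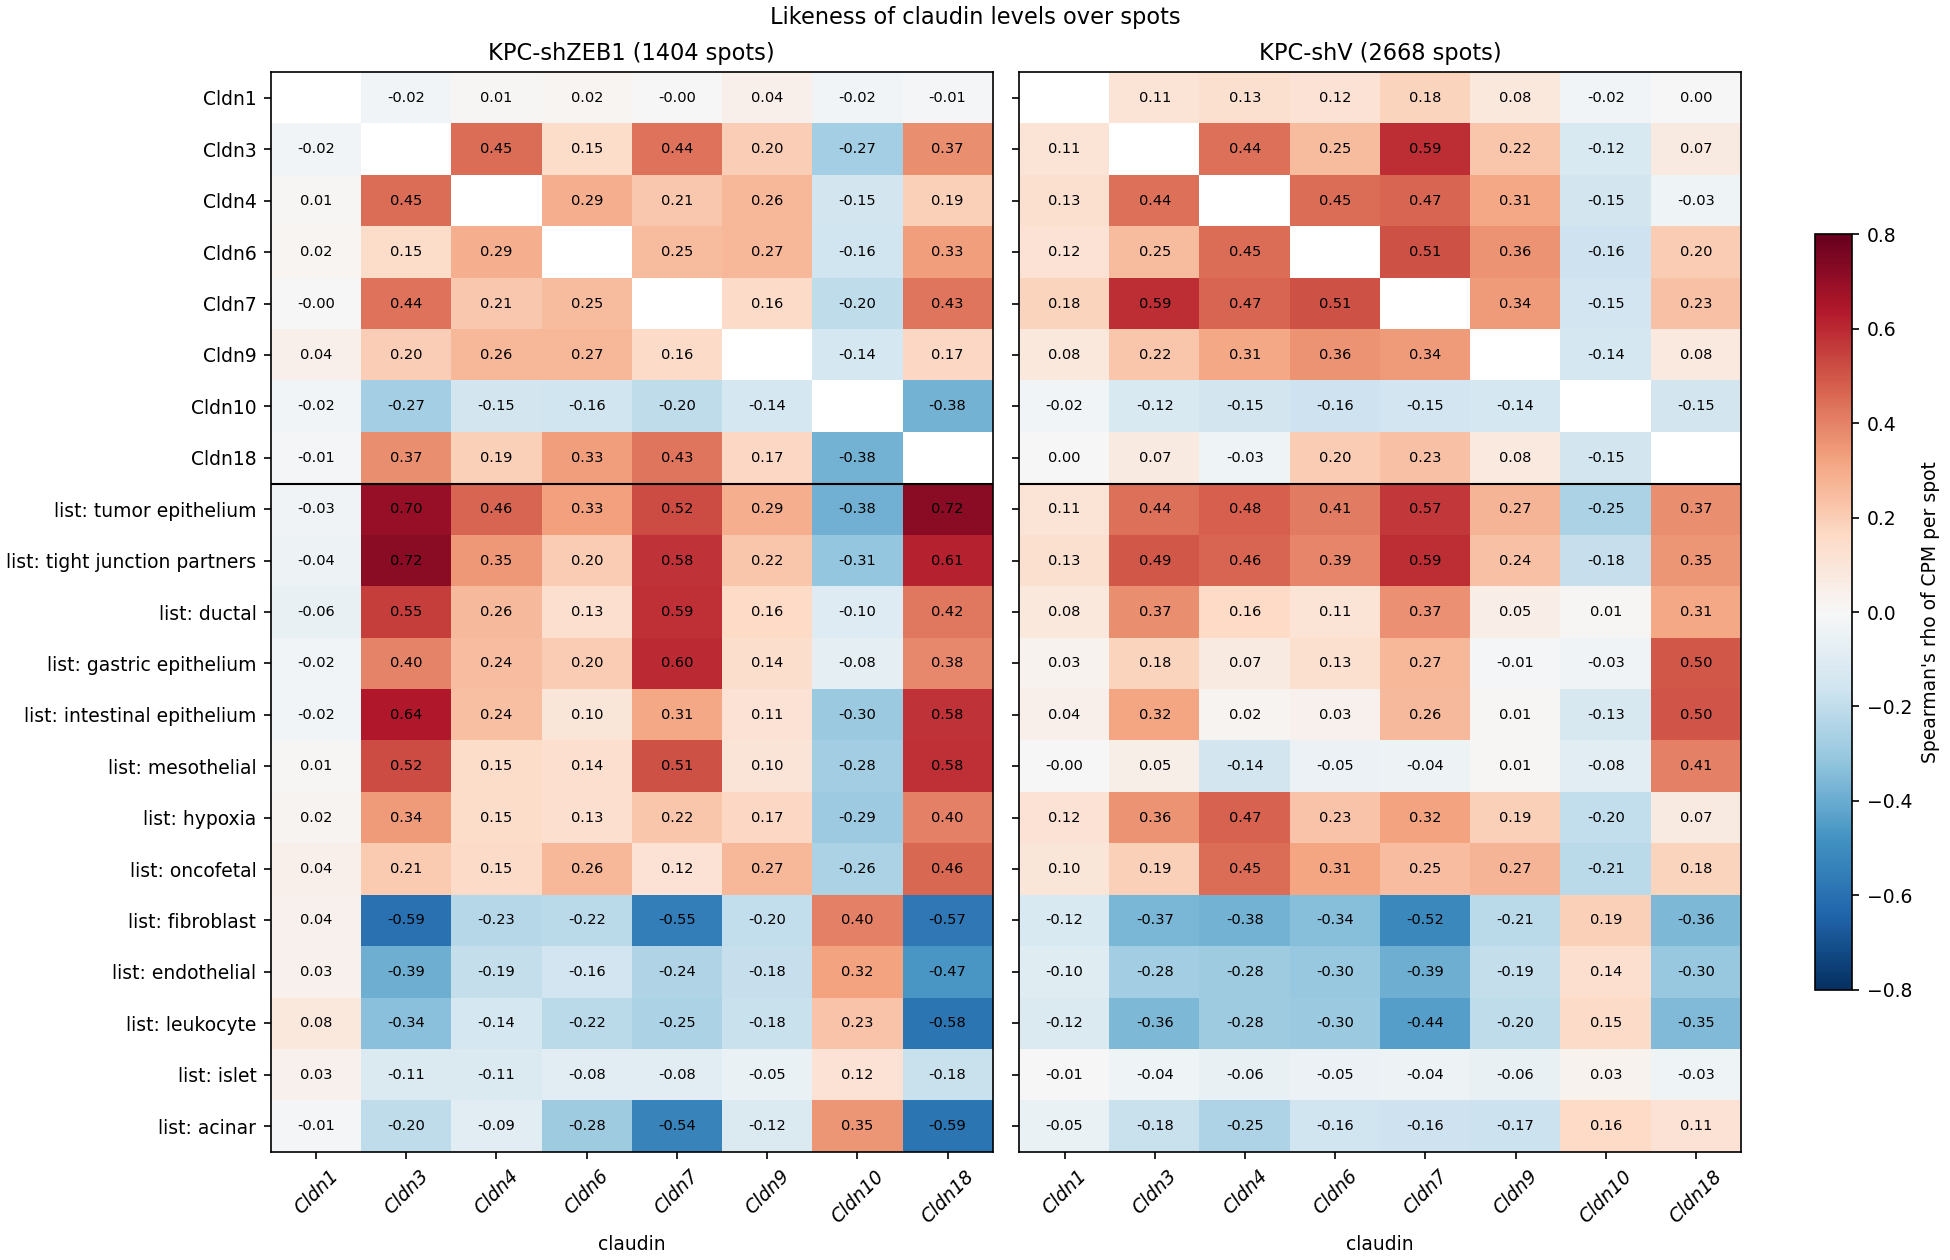
Spearman's rho of CPM per spot between the claudin genes (upper block) and with the summed level of marker lists (lower block), over 1404 spots of KPC-shZEB1 (left) and 2668 spots of KPC-shV (right) that were not acinar-rich, with red for positive and blue for negative values. Cldn3, Cldn4, Cldn6, Cldn7 and Cldn9 form a red block that is paler in KPC-shZEB1 for each pair except Cldn3 with Cldn4. Cldn4, Cldn6 and Cldn9 gave fewer UMIs per spot in that library. Cldn10 is blue against all other claudins and red against the fibroblast, endothelial, leukocyte and acinar lists.

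The features most like Cldn6 over KPC-shV spots, of 8350 features with a mean of at least 1 UMI per spot, were Wnt7b (rho 0.63), Prss22 (0.62), Anxa1 (0.59), Srd5a1 (0.58) and Rdh10 (0.57). In KPC-shZEB1, where they were not picked and Cldn6 gave fewer UMIs per spot, the same features had rho of 0.38 to 0.41 with Cldn6. Their own log2 ratios between the libraries ran from -2.61 for Prss22, a serine protease, to -0.89 for Anxa1, an annexin, and without acinar-rich spots from -1.96 to -0.25. By the mean rho of both libraries Cldn9 was most like Prss22 and Srd5a1 too, Cldn4 was most like Lama3 and S100a14, Cldn7 like Ltf and Muc4, Cldn3 like Gpa33 and Spint2, Cldn18 like S100a6 and Krt8, and Cldn10 like Serpina3n and Prelp. The nearest features to Cldn1 were Hk2 and Cxcl5, at a rho of 0.19 or less.

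The direction of the difference between the libraries held under all 10 other settings for 7 of the 8 genes. These left out acinar-rich spots at other thresholds, the acinar genes, shallow spots or the highest spots, or scaled by another total. They overlap, and the filter at 500 genes and 1000 UMIs left out only 1 spot of KPC-shZEB1 and 2 spots of KPC-shV. They did not compare the libraries within groups of epithelial level or of acinar share. Counting only ratios whose intervals leave out 0, Cldn1, Cldn3 and Cldn18 changed side in the former and Cldn18 in the latter. By acinar share, Cldn1, Cldn6, Cldn7, Cldn9 and Cldn10 also had ratios on the other side, each with an interval that includes 0. Cldn6 ranged from -3.39 to -2.01, Cldn4 from -2.86 to -1.64, Cldn9 from -2.41 to -1.32, Cldn7 from -2.001 to -0.76 and Cldn10 from 1.24 to 3.06 on the log2 scale. Cldn18 ranged from -0.91 to -0.10 and Cldn1 from -1.41 to -0.02, while Cldn3 ranged from -0.82 to 0.10 and was above 0 under 1 setting.

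**Figure D5:**
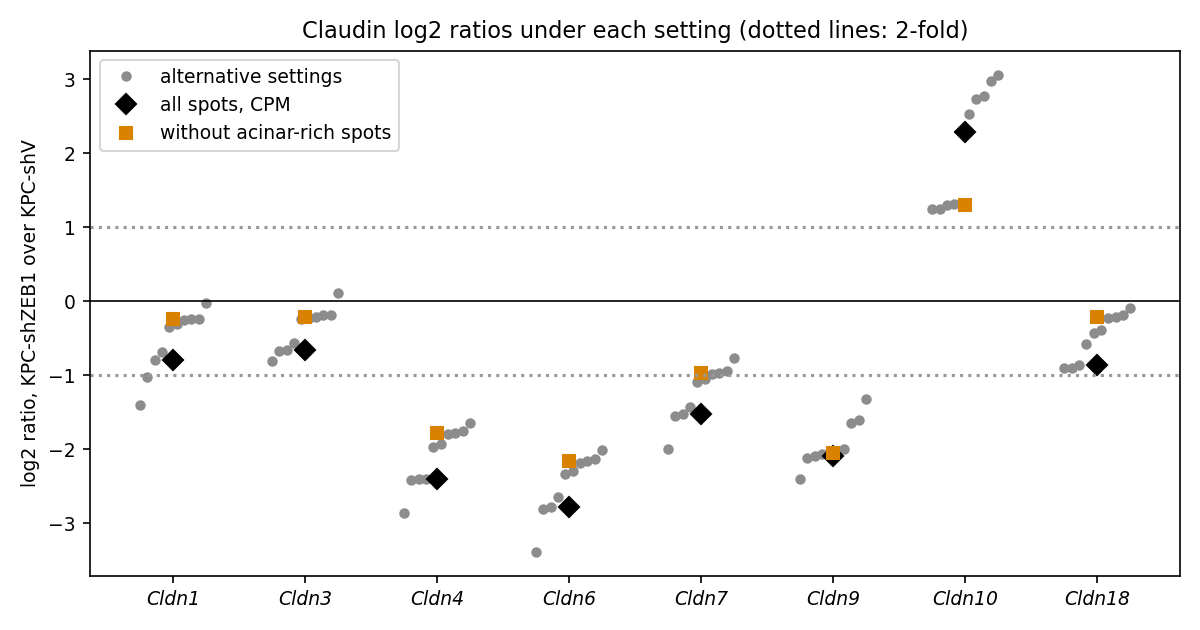
Log2 ratio between the libraries (KPC-shZEB1 over KPC-shV) for each claudin gene with all spots (black diamonds), without acinar-rich spots (orange squares) and under each other setting (gray points), with dotted lines at 2-fold. All points of Cldn4, Cldn6 and Cldn9 lie below -1 and all of Cldn10 above 1, and the points of Cldn1, Cldn3 and Cldn18 reach close to 0.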

How the data were processed

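Spatial transcriptomics of 1 KPC-shZEB1 and 1 KPC-shV tumor library was analyzed. Per the labels and the paper, the authors made Visium CytAssist libraries from hybridized probes, and the submitters' processing notes name Space Ranger 2.0.1 and mm10. The deposited files hold raw counts of UMIs per gene and spot, without normalization. Probe sequences and spot images were not used here, so cross-hybridization between claudin probes was not examined.

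Levels (CPM), log2 ratios and exact intervals were computed with Python 3.11.15, numpy 2.4.6 and scipy 1.17.1, and tested on simulated data. The 2-fold counts use features with at least 100 UMIs in the groups compared. Gene positions came from GENCODE M21 and upstream sequences from RefSeq GRCm38.p6. Named genes were the 8 claudins, the other claudins, listed tight junction partners (3 highest and 3 lowest ratios), features within 100 kb of Cldn6, the features most like each claudin, and Zeb1; Hilpda and Vegfa were added as neighbors of Cldn6 in rank. The other alleles of the KPC line and 1 of the 3 lowest tight junction partners are not reported here. The members and lists were chosen with earlier results of these data known. With 1 library per condition no test was possible. Barcodes shared by the libraries (1718) are slide positions. No doublet caller was run, since a spot is a region.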

Additional observations from a re-analysis of the deposited data

Results flagged for a closer look

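The comparison of acinar-rich with acinar-poor spots pointed in opposite directions in the libraries for Cldn3 and Cldn9, and the difference between the libraries was not tested. The log2 ratio of Cldn3 was -0.084 in KPC-shZEB1 and 0.322 in KPC-shV, both under 2-fold. The log2 ratio of Cldn9 was 1.394 in KPC-shZEB1, on 301 UMIs in acinar-rich spots, and -1.603 in KPC-shV, on 33 UMIs.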

How the results depend on the processing

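The Cldn6 log2 ratio between the libraries (-2.78) was -2.16 without acinar-rich spots, -2.13 and -2.18 with the limit at 5% and 40% acinar UMIs, -2.34 with acinar genes left out of the total, -2.29 with median-of-ratios scaling, -2.64 from CPM averaged over spots, -3.39 without the 5% of spots with the highest level and -2.01 per UMI of the tumor epithelium list. The number of the 8 genes at least 2-fold lower ranged from 3 to 5 over these settings, and 1 was higher in each. Of all features, 8.2% were lower and 2.08% higher with all spots, and 1.72% and 3.82% without acinar-rich spots. Shares under the other settings are not given here, so nothing is read from this range. In acinar-rich against acinar-poor spots of KPC-shZEB1, 2 genes were at least 2-fold higher, beside 7.65% of features. The count was 1 with all UMIs in the total and 1 by mean UMIs per spot. Under these settings the Cldn9 log2 ratio there (1.39) turned to -0.29 and -0.076, since acinar genes then enter the total or depth is not scaled. The sign of Cldn3 in that comparison was positive under 1 of 7 settings in KPC-shZEB1 and negative under 2 of 7 in KPC-shV. No paired analysis was possible because each condition had 1 library. Depth limits Cldn1 in both libraries and Cldn6 in acinar-rich spots, where the levels are close to those of genes not expected in the tissue.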
